A study of Homo sapiens with 6 samples.

Results

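Among the mRNAs measured in T24 cells, 343 moved in opposite directions under the siRNAs si-circ235-1 and si-circ235-2, both of which were aimed at the same circular RNA. They were selected on the measured values themselves, from 9961 protein-coding genes with a mean of at least 5 CPM over the 6 libraries (a gene's count scaled to the library total with edgeR's TMM factors) out of 58288 identifiers in the table. A gene was selected when the mean of one siRNA was at least 1.5-fold below the NC mean and the mean of the other at least 1.5-fold above it, with both libraries of each siRNA outside both NC libraries. In 223 genes the level was lower under si-circ235-1 and higher under si-circ235-2, and in 120 genes it was higher under si-circ235-1 and lower under si-circ235-2. The directions are kept apart throughout. Since every library took part in the selection, the levels and folds of these genes are a description and carry no test.

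T24 is a human bladder cancer cell line. Its cells were transfected, with Lipofectamine 2000, with the control siRNA (NC), si-circ235-1 or si-circ235-2, and each condition gave 2 libraries that the submitters call biological replicates. The siRNA was the only labelled difference between the groups. The RNA was enriched with oligo dT and sequenced without strand information, so circ235, which has no poly(A) tail, was not itself counted. Both siRNAs were compared with the same NC libraries.

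An siRNA is loaded into an Argonaute protein, which keeps one of its strands as a guide and cuts RNA that pairs with that guide along its length. The guide can also lower other mRNAs through its seed, the short stretch near its 5′ end through which microRNAs find their targets, and each siRNA sequence has a seed of its own. For that reason more than 1 siRNA is commonly used against a target, and genes are compared between them. Circular RNAs are formed when the end of an exon is joined back to the start of an exon upstream of it, and this junction is the only sequence that sets them apart from the linear mRNA of the same gene.

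The junction is shown because both siRNAs were directed at it. It joins the end of exon 7 of CCNY (in lower case, hg38 chr10:35530229-35530243, plus strand) to the start of exon 4 (in capitals, chr10:35516523-35516537), read from the GENCODE release 29 transcript ENST00000374704.7. The siRNA sequences were not used here.
circ235 junction: gccatcgtcaccctgCATCCTCCAGGACAA

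The study connects circ235 with miR-330-5p. Its mature sequence from RefSeq (GRCh38.p14, chr19:45639049-45639070, minus strand) is shown with the seed, nucleotides 2 to 8, in capitals, because the 3′ UTRs of the selected genes were searched for the match to it.
miR-330-5p: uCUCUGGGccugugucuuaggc

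The 7 letters complementary to the seed are CCCAGAG. They were found in the 3′ UTR of 72 of the 222 genes lower under si-circ235-1 and higher under si-circ235-2 that have an annotated 3′ UTR (32.4%), of 18 of the 120 genes of the opposite direction (15%), and of 2077 of 9940 eligible genes (20.9%). The 3′ UTRs of these sets differed in length, with medians of 1825, 506 and 1412 bases, and per kilobase of UTR the letters occurred 0.203, 0.11 and 0.136 times. Among the genes that moved the same way under both siRNAs, the letters were in 21.3% of those lower under both, at 0.297 per kilobase, and in 27.9% of those higher under both, at 0.108 per kilobase. A match of this kind is a description of the letters and not a site shown to be used. The first match, with the 15 bases before it in lower case, is shown for 3 of the highest-ranking named genes of each direction that had one. MLLT6 (chr17:38725690-38725711, plus), MAN2A2 (chr15:90920274-90920295, plus) and ABR (chr17:1003953-1003974, minus) were lower under si-circ235-1 and higher under si-circ235-2. S100A3 (chr1:153547537-153547558, minus), IFITM2 (chr11:309231-309252, plus) and ISG20 (chr15:88655876-88655897, plus) went the other way.
MLLT6: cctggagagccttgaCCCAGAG
MAN2A2: ggacaggggtggggaCCCAGAG
ABR: tttataaatcccaccCCCAGAG
S100A3: attttacctaggaggCCCAGAG
IFITM2: attcctcgccctgccCCCAGAG
ISG20: cctggtgcatttatgCCCAGAG

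The libraries held between 15373992 and 19912893 counts. The epithelial keratins KRT7, KRT8 and KRT18 were between 619 and 2307 CPM in every library. KRT19 reached at most 0.0611 CPM, EPCAM was between 1.28 and 2.93 CPM, and the urothelial differentiation markers UPK1A, UPK1B, UPK2, UPK3A and GATA3 were at or below 1.12 CPM, so these defining markers were near 0. PTPRC, ALB and MYH11, markers of leukocytes, hepatocytes and smooth muscle, were at 0 in all libraries, and the endothelial PECAM1 was at most 0.394 CPM. The linear CCNY mRNA, which does not report on the circle, was between 55.5 and 78.1 CPM. SLC16A3, the lactate transporter MCT4 that the study places downstream of circ235, was at 436 and 311 CPM in NC, 375 and 280 under si-circ235-1 and 229 and 194 under si-circ235-2, and was not among the selected genes.

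**Figure D1:**
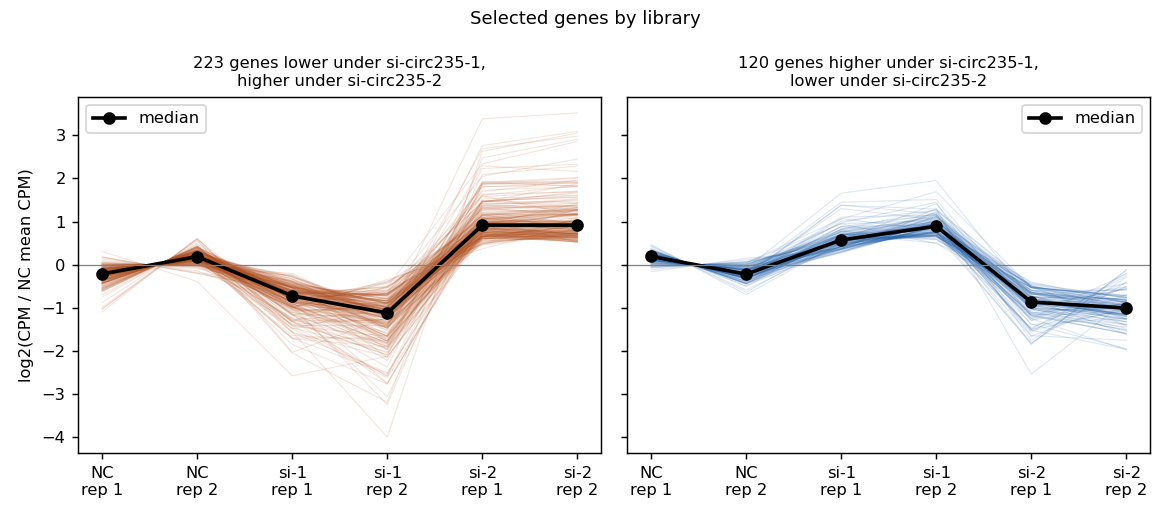
Each thin line is 1 selected gene and gives the log2 of its CPM over the mean of the NC libraries (y axis) in the 6 libraries (x axis, with si-1 and si-2 for the siRNAs), for the 223 genes lower under si-circ235-1 (left) and the 120 genes higher under it (right). The black medians show the NC libraries apart from each other (-0.21 and 0.19 on the left, 0.19 and -0.22 on the right) and replicate 2 of si-circ235-1 farther from NC than replicate 1 in both panels.

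The replicates of a condition were not alike for these genes. Among the 223 genes lower under si-circ235-1, the median log2 level relative to the NC mean was -0.21 and 0.19 in the NC libraries, -0.72 and -1.12 under si-circ235-1, and 0.92 in each library of si-circ235-2. Among the 120 genes higher under si-circ235-1, the medians were 0.19 and -0.22 in NC, 0.57 and 0.89 under si-circ235-1 and -0.86 and -1.0 under si-circ235-2. In both sets NC replicate 1 lay on the side of si-circ235-1 and NC replicate 2 on the side of si-circ235-2.

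The order of the replicates was not used by the selection. Replicate 2 of NC was above replicate 1 in 208 of the 223 genes lower under si-circ235-1 (93.3%), while replicate 1 was the higher in 109 of the 120 genes of the opposite direction (90.8%). Over all eligible genes the corresponding shares were 52.8% and 47.2%. Under si-circ235-1, replicate 1 was the higher in 185 of the 223 genes (83.0%, against 51.2% of eligible genes) and replicate 2 in 107 of the 120 (89.2%, against 48.8%). Under si-circ235-2, replicate 2 was the higher in 127 of the 223 (57.0%, against 36.5% of eligible genes) and replicate 1 in 92 of the 120 (76.7%, against 63.5%).

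Taken jointly over NC and si-circ235-1, 172 of the 223 genes (77.1%) rose in the order si-circ235-1 replicate 2, si-circ235-1 replicate 1, NC replicate 1, NC replicate 2, with si-circ235-2 on top. The mirror order held in 97 of the 120 genes (80.8%). These replicate orders held together in 27.4% and 23.4% of all eligible genes, respectively. The libraries of one condition therefore lay along the same axis as the conditions in most of the selected genes. Whether a difference in library preparation or culture had a part in this was not tested.

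**Figure D2:**
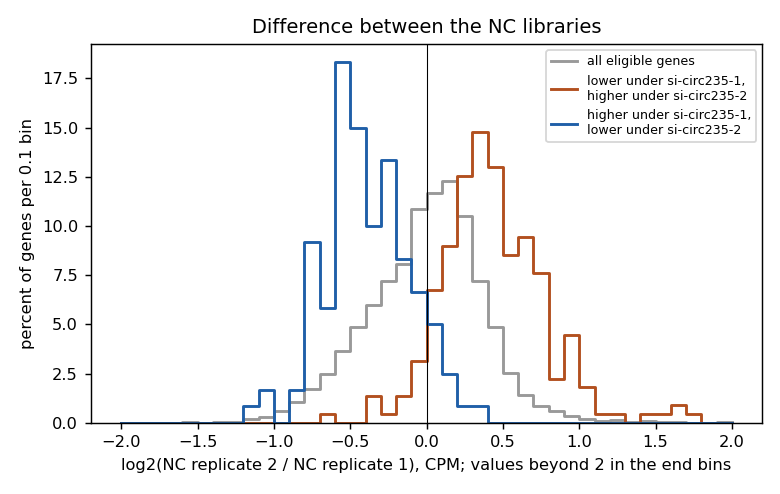
Percent of genes (y axis) per 0.1 bin of the log2 ratio of NC replicate 2 to NC replicate 1 in CPM (x axis), for all eligible genes (grey), the 223 genes lower under si-circ235-1 (brown) and the 120 genes higher under it (blue). The sets lie on opposite sides of 0, with medians of 0.40 and -0.41, although both NC libraries received the same treatment.

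The number of selected genes depended on single libraries. Without NC replicate 1 the same rule gave 318 genes lower under si-circ235-1 and 274 higher, and without NC replicate 2 it gave 162 and 74. Without si-circ235-1 replicate 1 the numbers were 399 and 240, and without si-circ235-1 replicate 2 they were 194 and 64. Leaving out either library of si-circ235-2 gave between 213 and 216 genes of the first kind and between 131 and 147 of the second. In all 6 runs, 63 of the 223 and 19 of the 120 still met the full rule. The signs of the ratios cannot change in such runs, since the rule kept the groups from overlapping.

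Each side of the rule alone was met by many more genes. Of the 9961 eligible genes, 1205 (12.1%) were lower under si-circ235-1 and 900 (9.04%) higher by the same limits, and 2206 (22.1%) were lower under si-circ235-2 and 2149 (21.6%) higher. The genes that moved the same way under both siRNAs numbered 302 lower and 298 higher. The selected genes are drawn against all eligible genes in the plot of ratios.

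**Figure D3:**
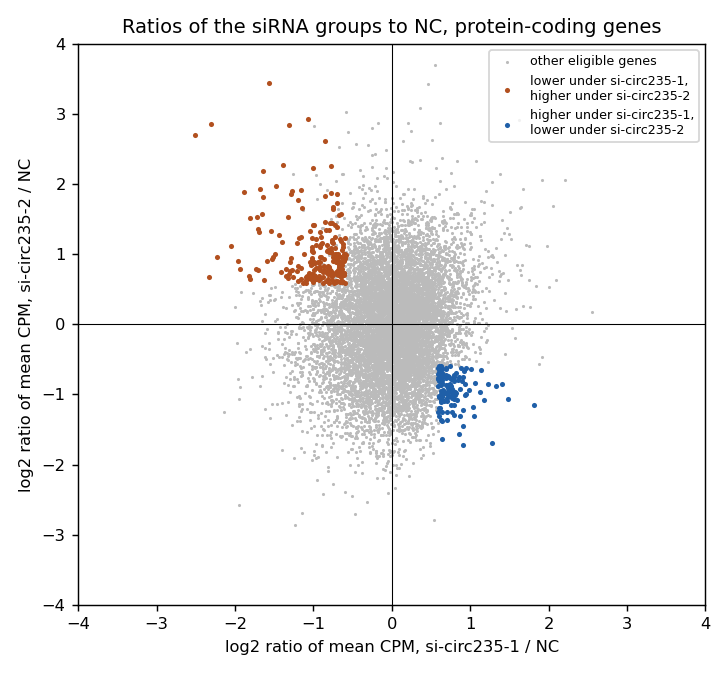
Log2 ratio of mean CPM to NC for si-circ235-1 (x axis) and si-circ235-2 (y axis), 1 point per eligible protein-coding gene, with the 223 genes lower under si-circ235-1 in brown and the 120 genes higher under it in blue. The brown points reach farther from the centre than the blue ones: 39 of the 223, but 6 of the 120, passed 2-fold on both sides.

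With edgeR's quasi-likelihood test over 14415 genes (Benjamini-Hochberg adjusted p under 0.05), 76 of the 223 genes were called lower under si-circ235-1 (34.1%, against 3.64% of all genes tested) and 165 higher under si-circ235-2 (74.0%, against 15.7%). Of the 120, 23 were called higher under si-circ235-1 (19.2%, against 2.24%) and 95 lower under si-circ235-2 (79.2%, against 15.7%). Between the siRNAs, all 223 were called higher and all 120 lower under si-circ235-2 (21.1% and 18.6% of all genes tested). These contrasts hold the values used for the selection, so nothing is read from the shares. The same holds for the counts called in both contrasts, given below without a share of all genes tested. Without TMM factors the calls over all genes tested shifted from 2270 higher and 2260 lower to 3173 and 1294 for si-circ235-2 against NC, from 323 and 524 to 179 and 529 for si-circ235-1 against NC, and from 3047 and 2678 to 4534 and 1496 between the siRNAs. Called in both contrasts with NC were 62 of the 223 and 21 of the 120, and without si-circ235-1 replicate 2 both counts were 0 (112 and 37 at an unadjusted p under 0.05 in both contrasts). Without NC replicate 1 they were 5 and 1, and without NC replicate 2 they were 8 and 0 (92 and 37 at an unadjusted p under 0.05).

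The genes lower under si-circ235-1 and higher under si-circ235-2 are described first. Their levels over the 6 libraries ranged from 5.04 to 900 CPM with a median of 20.3, and 14 of them had an NC mean under 5 CPM. POM121 (chr7:72879365-72951440), a membrane nucleoporin, was at 6.89 and 14.4 CPM in NC, 3.99 and 1.79 CPM under si-circ235-1 and 38.9 and 40.1 CPM under si-circ235-2. Its mean was 3.68-fold lower under the first siRNA and 3.72-fold higher under the second, so the siRNAs lay at nearly equal distances from NC. POM121 shares 18.8% of its exon bases with the opposite-strand pseudogene NSUN5P2 and has a close paralogue, POM121C, and reads of such genes may be misassigned. POM121C, named after its values were seen, was at 38.0 and 46.3, 21.3 and 16.6, and 64.0 and 68.3 CPM, the same direction with smaller folds.

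SMARCC2 (chr12:56162983-56189567) encodes a core subunit of the SWI/SNF chromatin remodelling complex. It was at 15.1 and 28.3 CPM in NC, 8.74 and 5.08 CPM under si-circ235-1 and 76.1 and 77.4 CPM under si-circ235-2, which is 3.14-fold lower and 3.54-fold higher. The NC libraries differed more from each other than the lower of them did from either library of si-circ235-1. MLLT6 (chr17:38705542-38729803), a PHD finger protein known as a fusion partner of the leukaemia gene KMT2A, was at 6.03 and 10.9, 4.41 and 0.893, and 31.1 and 33.9 CPM. TAF4 (chr20:61953469-62065810), a subunit of the general transcription factor TFIID, was at 5.31 and 10.9, 3.64 and 2.18, and 30.4 and 32.9 CPM, and its paralogue TAF4B, also named after its values were seen, at 4.66 and 6.91, 3.71 and 2.96, and 14.9 and 16.7 CPM. In each of these genes the library of si-circ235-1 with the lowest level was replicate 2, and the libraries of si-circ235-2 were close together and far above all others.

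BCL9L (chr11:118893875-118925608), a coactivator of beta-catenin, was 3.16-fold lower under si-circ235-1 (16.7 and 9.88 CPM, NC 31.2 and 53) and 2.97-fold higher under si-circ235-2 (121 and 129 CPM). It shares 37.5% of its exon bases with CXCR5 on the other strand, whose reads cannot be told apart from its own in data without strand. ZNF384, a zinc finger transcription factor, was 3.26-fold lower (3.22 and 0.782 CPM, NC 4.59 and 8.43) and 2.57-fold higher (17.0 and 16.4 CPM). SINHCAF, a subunit of the SIN3 histone deacetylase complex, was at 1.25 and 4.09 CPM in NC, 0.909 and 0.167 under si-circ235-1 and 16.5 and 22.1 under si-circ235-2. TSTD2 (1.25 and 2.81, 0.49 and 0.223, 11.3 and 15.2 CPM) and MARF1, a regulator of meiosis in the oocyte (0.722 and 2.14, 0.35 and 0.614, 14.9 and 16.4 CPM), had similar patterns. SINHCAF, TSTD2 and MARF1 passed the limit of 5 CPM only through si-circ235-2, with NC means of 2.67, 2.03 and 1.43 CPM. MARF1 met the rule in 3 of the 6 runs without 1 library.

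MYH9 (chr22:36281277-36388067), the heavy chain of nonmuscle myosin IIA, was the most abundant of the top-ranked genes of this direction. It was at 569 and 721 CPM in NC, 234 and 159 CPM under si-circ235-1 and 1800 and 1914 CPM under si-circ235-2, 3.29-fold lower and 2.88-fold higher, and no annotated gene on the other strand shares its exons. The matrix glycoprotein tenascin C (TNC) was at 48.4 and 68.8, 27.4 and 19.8, and 91.7 and 101 CPM, with a larger fold below NC (2.48) than above it (1.64). In neither gene did the groups overlap, which the rule required.

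PXN (paxillin), a scaffold of focal adhesions, was 1.95-fold lower under si-circ235-1 (48.7 and 29.3 CPM, NC 70.0 and 82.0) and 2.20-fold higher under si-circ235-2 (163 and 171 CPM). ITGB3, the integrin beta 3 chain, was 1.81-fold lower (2.17 and 1.84 CPM, NC 2.43 and 4.83) and 3.56-fold higher (11.7 and 14.1 CPM). ITGB3 shares 51.6% of its exon bases with another annotated gene on the same strand, passed the limit of 5 CPM only through si-circ235-2 and met the rule in 3 of the 6 runs without 1 library. PXN met it in all 6. Chosen after their values were seen, WASF2, which drives branched actin assembly at the cell edge, was at 83.8 and 102, 28.6 and 16.1, and 196 and 209 CPM, and HAS3, a hyaluronan synthase, at 165 and 211, 107 and 92.4, and 479 and 455 CPM. AMOTL2, which binds YAP, and CYR61, a matrix-associated protein and YAP target, lay nearer the limit, 1.55-fold and 1.62-fold lower and 1.80-fold and 1.54-fold higher.

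SEC24C (chr10:73744384-73772161), a cargo adaptor of the COPII coat, was at 4.66 and 14.4 CPM in NC, 4.27 and 1.84 under si-circ235-1 and 40.6 and 46.5 under si-circ235-2. The NC libraries of SEC24C differed more from each other than NC replicate 1 did from either library of si-circ235-1, and si-circ235-1 replicate 1 was close to NC replicate 1. SEC24C also shares 42.9% of its exon bases with a gene on the other strand. SEC24D, its paralogue, was 1.58-fold lower (7.97 and 7.98 CPM, NC 12.1 and 13.2) and 1.52-fold higher (19.4 and 19.0 CPM). MAN2A2, a Golgi mannosidase of N-glycan processing, was at 7.22 and 14.3, 4.34 and 1.79, and 30.0 and 31.7 CPM. ITPR3, the type 3 inositol trisphosphate receptor that releases calcium from the endoplasmic reticulum, was at 97.7 and 181, 71.1 and 39.8, and 383 and 423 CPM. ABR, a regulator of small GTPases, was at 9.71 and 18.7, 7.20 and 3.63, and 66.6 and 71.3 CPM. In ITPR3 and ABR, the distance between the NC libraries was larger than that between NC replicate 1 and si-circ235-1 replicate 1. MALL, a small membrane protein of the MAL family, was at 3.21 and 9.90, 2.45 and 2.07, and 17.1 and 16.0 CPM.

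Of the solute carriers, SLC35E2B, SLC12A7 (the potassium chloride cotransporter KCC4), SLC36A1 (a proton-coupled amino acid transporter) and SLC41A1 (a magnesium transporter) were lower under si-circ235-1 and higher under si-circ235-2, out of 166 eligible genes whose symbol starts with SLC. SLC12A7 rounded to the same 32.5 CPM in NC replicate 1 and si-circ235-1 replicate 1, so that its low mean rested on replicate 2 (15.1 CPM). It met the rule in 2 of the 6 runs without 1 library.

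PRR11 (chr17:59155499-59204705), a gene of cell cycle progression, was at 35.5 and 48.3 CPM in NC, 12.9 in each library of si-circ235-1 and 101 and 109 CPM under si-circ235-2. It was 3.25-fold lower and 2.5-fold higher. The antisense transcript AC099850.3, which overlaps 2.38% of its exon bases and was not eligible as a protein-coding gene, moved in the same directions (2.82 and 7.52, 1.61 and 2.79, 18.2 and 19.0 CPM). PRR11 was the only gene of the 52 on the mitosis and spindle list that met the rule. Over these 52 si-circ235-1 had a median log2 ratio to NC of -0.04 and si-circ235-2 one of -0.15, while over all eligible genes it was -0.00 and -0.01.

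Of the 38 DNA replication genes, GINS4, a subunit of the replicative helicase, and POLA1, the catalytic subunit of DNA polymerase alpha, met the rule. GINS4 was at 5.58 and 9.47, 4.69 and 2.85, and 20.9 and 19.1 CPM, and POLA1 at 9.05 and 14.8, 7.20 and 4.30, and 18.1 and 19.9 CPM. In both genes NC replicate 1 was nearer to si-circ235-1 replicate 1 than to NC replicate 2. ACACA, the acetyl-CoA carboxylase that starts fatty acid synthesis, was 1.81-fold lower (2.94 and 5.14 CPM, NC 5.44 and 9.17) and 6.14-fold higher (36.9 and 52.9 CPM), the most uneven of the list members of this direction. MARS2, the mitochondrial methionyl-tRNA synthetase, was 1.55-fold lower and 1.72-fold higher.

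Both genes of the microRNA pathway that met the rule were of this direction. DROSHA, the nuclease that cuts primary microRNA transcripts, was at 58.6 and 66.7 CPM in NC, 41.8 and 34.8 under si-circ235-1 and 124 and 119 under si-circ235-2. AGO1, one of the Argonaute proteins, was at 27.4 and 27.3, 20.9 and 14.6, and 43.8 and 39.2 CPM. The NC libraries were almost equal for AGO1. Its higher level under si-circ235-2 turned to a log2 ratio of -0.21 when each library was corrected for its trend with transcript length and GC content. Of the 16 genes of the pathway list, 15 were above NC under si-circ235-2 and 6 below NC under si-circ235-1, with median log2 ratios of 0.72 and 0.08. The median coding length of the list was 2622 bases. Among eligible genes in the longest of 5 equal classes of coding length (from 2565 bases), the median under si-circ235-2 was 0.51, against -0.01 over all eligible genes. Whether coding length had a part in the levels of the list was not tested.

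SETD1B, a histone H3 lysine 4 methyltransferase, was at 20.6 and 20.4, 11.8 and 8.82, and 32.7 and 34.2 CPM, and met the rule without any 1 library. With SMARCC2 it was 1 of 2 members among the 48 chromatin modifiers. Of that list 32 genes were below NC under si-circ235-1 and 36 above NC under si-circ235-2, the medians being -0.09 and 0.52. The median coding length of the list was 4833 bases, within the longest class of coding length. Eligible genes of that class had medians of -0.08 and 0.51. PRPF8, the central protein of the spliceosome, was 1.57-fold lower (149 and 80.0 CPM, NC 167 and 192) and 1.83-fold higher (320 and 335 CPM). Beyond ZNF384, the zinc finger genes ZNF436, ZNF514, ZNF738, ZNF776 and ZNF8 met the rule, 6 of 286 eligible genes whose symbol starts with ZNF, and their levels ranged from 2.94 to 22.2 CPM.

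**Figure D4:**
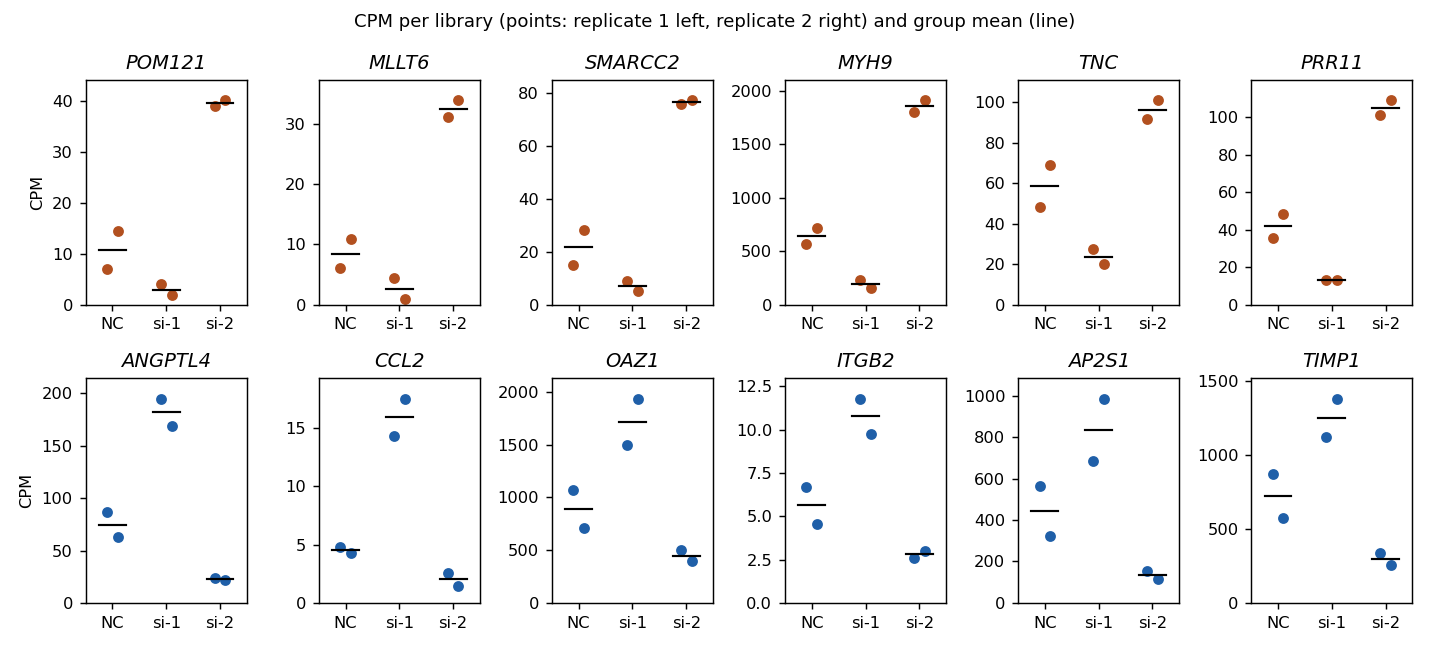
CPM per library (y axis, from 0, a scale for each gene) in NC, si-circ235-1 (si-1) and si-circ235-2 (si-2), with replicate 1 drawn to the left, replicate 2 to the right and the group mean as a line, for 6 genes lower under si-circ235-1 (brown) and 6 higher under it (blue). For MYH9 the si-circ235-2 libraries stand at 1800 and 1914 CPM and the NC libraries at 569 and 721, and for OAZ1 and AP2S1 the NC libraries are farther apart than NC replicate 2 and si-circ235-2 replicate 1.

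The 120 genes higher under si-circ235-1 and lower under si-circ235-2 had levels from 5.36 to 2266 CPM over the 6 libraries, with a median of 64.0, and 3 had an NC mean under 5 CPM. ANGPTL4 (chr19:8363289-8374373), a secreted inhibitor of lipoprotein lipase that is also induced by hypoxia, was at 86.5 and 63.1 CPM in NC, 195 and 169 CPM under si-circ235-1 and 23.9 and 22.2 CPM under si-circ235-2. Its mean was 2.43-fold higher and 3.24-fold lower. CCL2 (chr17:34255218-34257203), the chemokine that attracts monocytes, was at 4.79 and 4.28, 14.3 and 17.5, and 2.60 and 1.48 CPM, 3.51-fold higher and 2.22-fold lower. The NC libraries of CCL2 differed little from each other compared with the distance to either siRNA.

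CSF2, the cytokine GM-CSF, was at 4.85 and 4.16 CPM in NC, 7.90 and 9.43 under si-circ235-1 and 3.13 and 2.72 under si-circ235-2. NFKBIE, an inhibitor of NF-kB, was at 82.5 and 54.9, 102 and 110, and 39.5 and 36.0 CPM. Together with CCL2 these were the 3 members among the 21 eligible genes of the NF-kB, chemokine and cytokine list, and CCL2 alone of them met the rule in every run without 1 library. CCL2 and CSF2 passed the limit of 5 CPM only through si-circ235-1. Over that list the medians of the log2 ratios were 0.21 for si-circ235-1 and -0.30 for si-circ235-2.

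ID1 (chr20:31605283-31606515), an inhibitor of basic helix-loop-helix factors and a target of BMP signalling, was at 335 and 235 CPM in NC, 526 and 640 under si-circ235-1 and 139 and 114 under si-circ235-2. TIMP1, the tissue inhibitor of metalloproteinases, was at 871 and 575, 1123 and 1382, and 340 and 253 CPM, opposite in direction to TNC of the same matrix list. S100A3, a calcium-binding protein, was at 14 and 10.9, 33.9 and 35.5, and 6.14 and 5.78 CPM. IFITM2, an interferon-induced membrane protein, was at 11.3 and 7.88, 24.9 and 23.4, and 6.84 and 3.59 CPM, and shares 22.7% of its exon bases with IFITM1 on the same strand. ISG20, an interferon-induced exonuclease, was 1.58-fold higher (14.7 and 16.0 CPM, NC 11.7 and 7.70) and 1.96-fold lower (5.19 and 4.68 CPM). ISG20 was the 1 member among the 17 eligible genes of the interferon list, which did not hold IFITM2.

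ITGB2, the integrin beta 2 chain best known from leukocytes, was at 6.69 and 4.58, 11.8 and 9.77, and 2.60 and 3.01 CPM, while the leukocyte marker PTPRC was at 0 in all libraries. FXYD5, a regulator of the sodium pump, was at 353 and 254, 560 and 576, and 153 and 109 CPM. SLC35E4 was at 42.3 and 32.0, 91.4 and 76.7, and 18.7 and 16.6 CPM, and 27.7% of its exon bases lie under DUSP18 on the other strand. FXYD5, SLC35E4, S100A3, ITGB2 and ID1 met the rule in all 6 runs without 1 library. Of these, ITGB2 met it with the trend of length and GC content removed and the others did not.

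OAZ1 (chr19:2269509-2273490), the antizyme that limits polyamine synthesis, was at 1071 and 709 CPM in NC, 1495 and 1936 under si-circ235-1 and 501 and 393 under si-circ235-2. AP2S1 (chr19:46838136-46850992), the small subunit of the clathrin adaptor AP-2, was at 564 and 325, 685 and 987, and 155 and 114 CPM. In both genes the gap between the NC libraries was larger than that between NC replicate 2 and si-circ235-2 replicate 1. SDHAF2, an assembly factor of succinate dehydrogenase, was at 48.0 and 29.3, 57.4 and 103, and 16.9 and 14.2 CPM. The mitochondrial chaperonin HSPE1 was at 43.8 and 36.8, 53.2 and 93.6, and 21.5 and 21 CPM. TALDO1, transaldolase of the pentose phosphate pathway, was at 389 and 267, 460 and 608, and 146 and 109 CPM. In each of AP2S1, SDHAF2, HSPE1 and TALDO1, si-circ235-1 replicate 1 was nearer to NC replicate 1 than to si-circ235-1 replicate 2.

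SNRPD3, a core protein of spliceosomal snRNPs, was 1.64-fold higher and 1.68-fold lower, opposite to PRPF8 on the same list. OSGIN1, a target of the oxidative stress factor NRF2, was 1.53-fold higher and 1.69-fold lower. HIST1H2AE, a replication-type histone gene, was at 8.13 and 5.75, 14.9 and 15.4, and 4.19 and 2.92 CPM. CCPG1, an endoplasmic reticulum autophagy receptor, was at 7.08 and 4.52, 7.48 and 14.3, and 1.00 and 3.25 CPM, with 38.7% of its exon bases in a readthrough gene. ANKRD46 (8.40 and 7.64, 15.5 and 16.3, 4.31 and 4.06 CPM) and RBM11, a splicing regulator (6.82 and 6.48, 8.60 and 15.6, 2.54 and 2.82 CPM), completed the leading genes. ANKRD46 and HIST1H2AE met the rule in all 6 runs without 1 library.

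Of the 26 gene lists written from general knowledge or by symbol, 7 held no gene that met the rule in either direction. These were amino acid stress, endoplasmic reticulum folding, glycolysis and lactate transport, immediate early genes, p53 targets, lysosome and autophagy, and RAB GTPases. Of the rest, 13 held genes lower under si-circ235-1, 9 held genes higher under it and 3 held both. No list held more than 6. A list's share should be read against 223 and 120 of 9961 genes, and no list was tested.

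Complete families were counted after the values had been seen, because related symbols recurred in the member table, and no theme is drawn from them. Of 36 proteasome subunits, PSMB1, PSMB7, PSMA1, PSMA4 and PSMB3 were higher under si-circ235-1 and lower under si-circ235-2, and none was of the other direction. PSMA4 was at 253 and 213, 363 and 447, and 149 and 132 CPM. Across all 36 the medians were 0.29 and -0.61 on the log2 scale, with 28 above NC under si-circ235-1 and 31 below NC under si-circ235-2.

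Of the 79 cytosolic ribosomal protein genes, RPS29 and RPL39 were among those that met the rule. RPL39 was at 1273 and 847 CPM in NC, 1297 and 2167 under si-circ235-1 and 605 and 459 under si-circ235-2, so that si-circ235-1 replicate 1 lay next to NC replicate 1. The family as a whole was below NC under si-circ235-2 in 77 of 79 genes (median -1.20) and above NC under si-circ235-1 in 59 (median 0.19). Of 84 respiratory chain subunits UQCRQ, COX7A2, NDUFAB1 and UQCRFS1 met it, and of 72 mitochondrial ribosomal proteins MRPL14 and MRPL54 did, with medians of 0.12 and -0.99, and 0.10 and -0.73. Ribosomal protein genes have many processed pseudogenes, to which some of their reads may have been assigned.

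Histones and dynein parts held genes of both directions. H2AFZ, H2AFJ and HIST1H2AE were higher and HIST2H2BE lower under si-circ235-1, out of 26 histone genes. The small subunits DCTN6, DYNLL1 and DYNLRB1 were higher under si-circ235-1, while DCTN1, the large p150 subunit of dynactin, was lower (78.4 and 95.0, 73.4 and 38.1, 133 and 133 CPM), out of 11 genes. POLR2A, the largest subunit of RNA polymerase II, was at 206 and 231, 142 and 108, and 372 and 382 CPM, and the small subunit POLR2I at 15.3 and 9.05, 16.4 and 25.1, and 5.55 and 6.50 CPM. POLR2I shares 61.9% of its exon bases with a gene on the other strand. COMMD1 and COMMD8, out of 10 genes of the COMMD family, were higher under si-circ235-1. POM121, POM121C and NUP188 (of 22 nucleoporins) and KIF13B, KIF24, MYO19 and MYH9 (of 43 kinesins and myosin heavy chains) were lower under it. Of dynactin, DCTN1 was thus lower and DCTN6 higher under si-circ235-1, and of RNA polymerase II, POLR2A was lower and POLR2I higher. These genes were picked after their values were seen, and nothing is read from them about the complexes.

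The directions differed in gene length, which the selection did not use. Transcript lengths and exon numbers were taken from the longest annotated transcript of each gene. For some genes, such as POLR2A, the coding part of that transcript is not the longest. Coding lengths were the longest among the protein-coding transcripts of a gene. The median transcript was 5091 bases in the genes lower under si-circ235-1, 2038 bases in those higher under it and 3792 bases over all eligible genes. The median coding lengths were 2205, 618 and 1425 bases and the median exon numbers 13, 5 and 9. A coding length under 600 bases was found in 8 of the 223 (3.59%), 59 of the 120 (49.2%) and 11.9% of eligible genes, and one over 3000 bases in 80 (35.9%), 3 (2.5%) and 14.6%. With the eligible genes cut into 5 equal classes by coding length, in the shortest class 12 genes (0.602%) were of the first direction and 76 (3.81%) of the opposite one, and in the longest class 100 (5.02%) and 3 (0.151%).

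**Figure D5:**
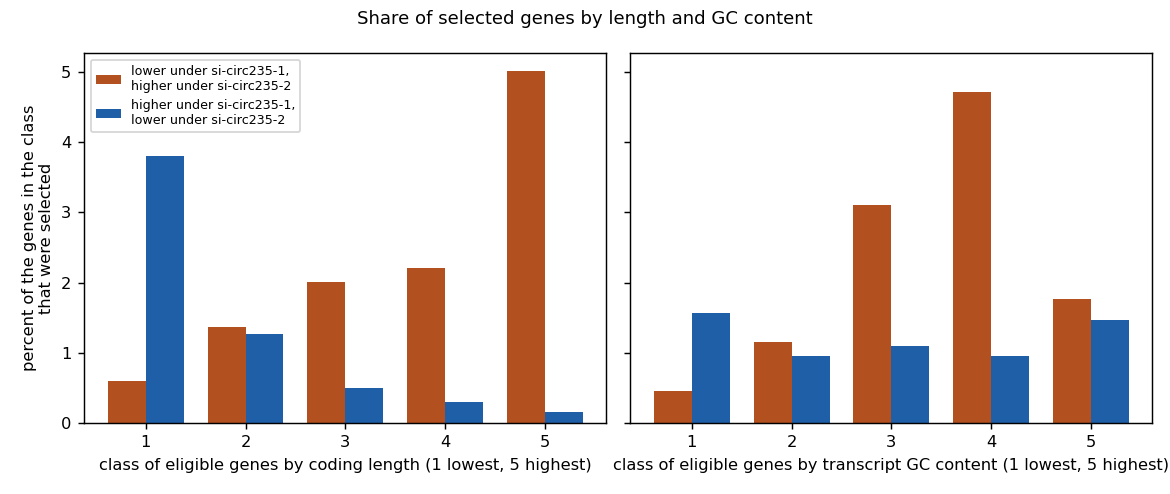
Percent of the eligible genes in each of 5 equal classes (x axis) that were selected (y axis, from 0), by coding length (left) and by GC content of the longest transcript (right), in brown for the genes lower and in blue for those higher under si-circ235-1. With coding length the brown bars climb from 0.602% to 5.02% and the blue bars fall from 3.81% to 0.151%, while by GC content the brown bars peak in class 4 at 4.72%.

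Ratios over all eligible genes also moved with coding length, and so did the ratio between the NC replicates. From the shortest to the longest class of coding length, the median log2 ratio went from 0.14 to -0.08 for si-circ235-1 over NC and from -0.49 to 0.51 for si-circ235-2 over NC. It went from -0.19 to 0.16 between replicate 2 and replicate 1 of NC, which had the same treatment. Across the 9961 genes, the Spearman correlation with coding length was -0.155, 0.444 and 0.337 for these 3 ratios, as a description over genes that share libraries. With transcript length it was 0.012, 0.538 and 0.415, so for si-circ235-1 the ratio moved with coding length and GC content but hardly with transcript length. Between the replicates of si-circ235-1 it was -0.198 with coding length and -0.028 with transcript length. Between those of si-circ235-2 it was 0.385 and 0.502. The median GC content of the transcript was 52.6% in the 223 genes, 49.0% in the 120 and 48.0% over all eligible genes. For GC content the correlations were -0.326, -0.256 and -0.445. Between replicate 2 and replicate 1 they were -0.452 for si-circ235-1 and -0.566 for si-circ235-2.

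The sets that moved the same way under both siRNAs also differed from each other in length, and in GC content. The 302 genes lower under both had a median transcript of 2356 bases and a median GC content of 60.3%, and the 298 genes higher under both had 5412 bases and 44.1%. Long transcripts thus occurred in both sets that were higher under si-circ235-2, and GC content set those apart (52.6% and 44.1%). Whether RNA integrity, fragment selection or amplification moved with these features was not tested.

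After each library had been corrected for a smooth trend with the length and GC content of the transcripts, 136 genes were lower under si-circ235-1 and higher under si-circ235-2 and 121 were of the opposite direction. Of the original genes, 104 of 223 (46.6%) and 49 of 120 (40.8%) still met the rule, and 222 and 113 kept the signs of both ratios. Among the leading genes POM121, MLLT6, SMARCC2, BCL9L, MYH9, PRR11, ANGPTL4, CCL2, OAZ1, AP2S1 and ITGB2 still met it, and TSTD2, MARF1, S100A3, ID1, SLC35E4, HIST1H2AE, CCPG1, FXYD5, IFITM2 and RBM11 did not. In all, 39 of the 223 and 9 of the 120 met the rule in every run without 1 library, under each scaling and with the trend removed. The trend did not include coding length. Outside the genes already described, ADCY3, TAPBP and ABL1 were among the 39, and STX8, CACYBP and B3GNTL1 among the 9, chosen after their values were seen. ABL1, the tyrosine kinase, was at 49.7 and 65.8, 29.4 and 18.0, and 109 and 113 CPM, and CACYBP, which binds calcyclin, at 164 and 160, 256 and 267, and 90.7 and 87.5 CPM.

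Some selected genes shared reads with a neighbour or lay next to one another. At least 10% of the exon bases were shared with a gene on the other strand in 39 of the 223 (17.5%), 16 of the 120 (13.3%) and 11.4% of eligible genes. Within 100000 bases of each other lay 12 pairs of selected genes, with 8 pairs of the same direction and 4 of opposite directions. ZBTB4 and POLR2A start 102 bases apart on opposite strands of chromosome 17, and both were lower under si-circ235-1. By contrast MLLT6 and the proteasome gene PSMB3, 22932 bases apart on the same chromosome, went in opposite directions, as did H2AFJ and WBP11 on chromosome 12 and FBH1 and IL15RA on chromosome 10.

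At the limit of the rule the values were close. NBPF12 (4.59 and 6.54, 3.57 and 3.85, 11.6 and 10.5 CPM) and ZMYM3 (30.4 and 39.4, 25 and 16.9, 53.8 and 51.0 CPM) were just inside it, while DDX6 (60.5 and 69.5, 48.9 and 38.0, 113 and 137 CPM) and WDCP (11.7 and 18.2, 8.88 and 6.81, 24.1 and 20.8 CPM) were just outside. In the other direction RPF1 (46.3 and 43.1, 57.9 and 76.2, 30.9 and 27.2 CPM) and SERP1 (145 and 124, 188 and 215, 79.4 and 77.7 CPM) were just inside, and DCK (28.8 and 36.8, 46.4 and 59.3, 20.2 and 23.8 CPM) and SETMAR (17.4 and 16.0, 25.4 and 24.5, 10.3 and 8.80 CPM) just outside. The weaker fold of all 8 genes was 1.5 within 0.01, so their place on either side of the limit has no weight.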

How the data were processed

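The authors deposited 1 table of raw gene counts, without normalization, for the 6 libraries. The submitters' processing notes name FastQC, cutadapt, STAR and hg38; tool versions, the counting tool and the annotation were not given in the sources used here. The libraries held 15373992 to 19912893 counts. Counts were scaled with TMM factors (edgeR 4.0.16, R 4.3.3) to CPM without log. GENCODE release 29 held 99.5% of the identifiers. The type of a gene came from its gene record, and its length and GC content from its longest transcript. The 3′ UTR was the longest one among the protein-coding transcripts of the gene in the basic set of the release. Promoters and proteins were not used here.

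Genes were selected with the rule given above. The members and gene lists were chosen with earlier results of these data known. edgeR's quasi-likelihood test (1 mean per condition over all 6 libraries, filterByExpr, Benjamini-Hochberg adjusted p under 0.05) gave calls over 14415 genes and served as background. It was tried on simulated counts that held no trend with length or GC content, so the trial does not cover such trends. With 2 libraries per condition, p-values set group differences against a spread that was estimated from these libraries and shared by all conditions. The replicates differed by far more than sampling noise (chi-square per degree of freedom 21.7 to 33.3).

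Named genes were, per direction, the 15 with the largest weaker fold, those in the fixed lists, PRR11, and the 2 just inside and 2 just outside the limit. Seed matches were exact 7-letter matches on the mRNA strand. The trend with length and GC content was a spline with 5 degrees of freedom for each feature, fitted to log2(CPM + 0.5) per library. Alternatives were CPM without TMM factors, DESeq2 1.42.0 size factors and test, no count filter, other limits, a replicate block and each library left out. Other gene types were left out of the selection because the rule names protein-coding genes. A few items are not reported here.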

Additional observations from a re-analysis of the deposited data

Results flagged for a closer look

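In 223 genes the libraries of si-circ235-1 lay below and those of si-circ235-2 above both NC libraries with at least 1.5-fold between the means, and in 120 genes the reverse held. They appear here because every library of one siRNA moved one way and every library of the other the opposite way. Without the limit on fold, the groups lay apart in this way in 1020 (10.2%) and 882 (8.85%) of the 9961 eligible genes. The selection rule fixes the pattern, and the difference was not tested on libraries it did not use.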

How the results depend on the processing

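The number of genes lower under si-circ235-1 and higher under si-circ235-2 (223) was 424 without TMM factors, 136 with the length and GC trend removed, 39 with a 2-fold limit, 358 without the level floor, and 162 to 399 with 1 library left out. The opposite number (120) was 50 without TMM factors, 6 with a 2-fold limit, and 64 to 274 with 1 library left out. Dropping the TMM factors moved the median log2 ratio of all eligible genes to -0.08 with si-circ235-1 and to 0.25 with si-circ235-2. Calls of si-circ235-1 against NC (847) were 1678 without the count filter, 1519 with DESeq2 and 0 to 1482 with 1 library left out. The 0 was edgeR without si-circ235-1 replicate 2, with 2110 genes at an unadjusted p under 0.05, and without NC replicate 1, NC replicate 2 and si-circ235-1 replicate 1 the counts were 74, 134 and 423. Without si-circ235-2 replicate 1 or 2 they were 1425 and 1482. Calls of si-circ235-2 against NC (4530) were 769 to 4240, the lowest without NC replicate 1, and those between the siRNAs (5725) were 2817 to 5558, the lowest without si-circ235-1 replicate 2. Of the 223, 62 were called in both contrasts, 117 without the count filter, and 0 to 82 with 1 library left out. Of the 120, 21 were called in both, 7 without TMM factors, 58 without the count filter, 61 with DESeq2, and 0 to 39 with 1 library left out. The causes of these changes were not tested. Nothing is read from the counts called in both contrasts, since no share of all genes tested stands beside them.

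The correlations of the replicate differences between conditions were low, at -0.0943, 0.149 and 0.139. In every condition, however, the ratio of replicate 2 to replicate 1 fell with GC content. The Spearman correlations were -0.445 in NC, -0.452 under si-circ235-1 and -0.566 under si-circ235-2. Whether libraries of the same number were handled together was not tested. With the replicate number as a block, the calls were 937, 4750 and 6043 and the members called in both contrasts 50 and 22. Of the log2 ratios of the named genes, 1 changed sign under an alternative, AGO1 under si-circ235-2, at -0.21 with the trend removed. Summed over genes, the replicates of a condition differed by far more than sampling noise (chi-square per degree of freedom 21.7 to 33.3). Whether depth was a limit for genes of low level was not tested.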

Other observations

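The same limits were met by 14 genes of other types that were lower under si-circ235-1 and higher under si-circ235-2, and by 9 of the opposite direction. CASC19, a long noncoding RNA, was at 62.9 and 76.8 CPM in NC, 39.7 and 43.9 under si-circ235-1 and 145 and 174 under si-circ235-2. CYTOR, another long noncoding RNA, was at 37.9 and 21.8, 45.3 and 89.0, and 16.9 and 15.9 CPM, with si-circ235-1 replicate 1 nearer to NC replicate 1 than to its own replicate. Of the 14, 4 are annotated as antisense to another gene. CASC19 and CYTOR also have a gene on the other strand, PRNCR1 and LINC01943, and so do EMC3-AS1 and MKLN1-AS. Without strand information, the reads of such genes cannot be told apart from those of the other gene where the exons overlap. MT-ATP8 was the 1 selected gene of 13 eligible mitochondrially encoded genes.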
